A study of Mus musculus with 6 samples.

Results

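The genes described here are the clustered Hox genes, chosen as every row of the gene table with a symbol made of Hox, a cluster letter from a to d and a number, which gave 39 of 54429 genes. Antisense and opposite-strand transcripts of the clusters were left out of that set. They were measured by RNA-seq of ribodepleted RNA from primary mouse aortic endothelial cells (EC) carrying a Meis1 overexpression vector (Meis1-OE EC, 3 libraries) or a control vector with YFP alone (YFP-CTRL EC, 3 libraries). Both groups were WT adult C57BL/6 cells transduced in culture for 48 h and sorted at 72 h as YFP+CD31+VEC+, and both were then re-plated and grown to confluency before RNA was taken. The cells of both groups had therefore been cultured, transduced and sorted, and no untransduced cells were analysed here. The comparison asks which Hox genes the aortic endothelium transcribes, and which of them differ when Meis1 is raised.

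Hox genes encode homeodomain transcription factors that give cells their position along the head-to-tail axis of the embryo. They lie in clusters named A to D, and the number of a gene gives its paralog group, with low numbers active toward the head and high numbers toward the tail. Endothelial cells keep a Hox pattern that reflects the part of the body they came from. Hox proteins bind DNA together with TALE homeodomain proteins: Pbx proteins pair with many Hox proteins, Meis proteins pair with Pbx and with posterior Hox proteins, and Pknox proteins are relatives of Meis.

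Deposited totals ran from 34176592 to 47956569 counts per library. Levels are given as CPM, the normalised read count relative to the TMM-scaled library size, and 3 counts, taken as the limit of detection, were worth between 0.0648 and 0.0883 CPM. The libraries are named by the letters A, B and C of their columns. The labels do not say whether a shared letter pairs a Meis1-OE with a YFP-CTRL library, and the main fit used no pairing. Meis1 itself had 135325, 157828 and 149221 counts in Meis1-OE EC and 39, 58 and 85 counts in YFP-CTRL EC, and reads of the vector and of the native gene could not be told apart. The summed level of 11 endothelial markers was 3685, 4139 and 4615 CPM in Meis1-OE EC and 4620, 6407 and 4841 CPM in YFP-CTRL EC. Every Meis1-OE library was below every YFP-CTRL library, though the nearest 2 were almost equal. The sum includes Pecam1 and Cdh5, which encode the CD31 and VEC used to sort the cells. By gene, 3 markers were higher and 3 lower without overlap, where 17.2% and 15.9% of all tested genes were separated in those directions. Cdh5 (log2 fold change -0.70, adjusted p = 0.0535 by edgeR) and Kdr (-1.23, adjusted p = 0.0504) were among the lower. In the fit described below, Vwf and Cldn5 were called higher in Meis1-OE EC, Tek was called lower and 8 of the 11 were not called. Over all tested genes 4.14% were called higher and 2.73% lower. One library stood apart. YFP-CTRL library C had a summed level of 15 proliferation genes of 1876 CPM, near the 1951 to 1985 CPM of the Meis1-OE libraries, whereas YFP-CTRL libraries A and B had 451 and 758 CPM. It also had the most smooth muscle marker signal, 22.7 CPM over 8 genes against 1.62 to 6.45 CPM elsewhere. Acta2 alone gave 19.9 CPM of it in that library. The 7 fibroblast markers summed to 33.4, 49.5 and 16.1 CPM in YFP-CTRL EC and 11.92 to 12.03 CPM in Meis1-OE EC, with Lum and Dpt at 0. Nearly all of this was Pdgfra, with 33.3, 49.1 and 15.6 CPM in YFP-CTRL EC and 11.7 to 11.9 CPM in Meis1-OE EC. The differences in the smooth muscle and fibroblast sums thus mainly follow single genes. Tagln and Cnn1 were also highest in YFP-CTRL library C, at 29 and 13 counts, whereas Myh11, Pdgfrb, Rgs5, Des and Cspg4 were not. The proliferation sum did not follow a single gene, as each of the 15 genes was higher in YFP-CTRL library C than in libraries A and B. Fewer cells of a type and less RNA per cell cannot be told apart in such bulk samples.

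Hox counts in YFP-CTRL EC came almost entirely from the HoxB, HoxD and HoxA clusters. With a mean of at least 1 CPM taken as expressed, 16 of 39 Hox genes were expressed in YFP-CTRL EC, 8 of 10 in HoxB, 5 of 9 in HoxD, 3 of 11 in HoxA and 0 of 9 in HoxC. Of all 54429 genes in the table, 12852 passed the same level. Genes without any count lay mostly at the high-numbered, posterior end, with 11 of 16 in paralog groups 9 to 13, 3 of 15 in groups 4 to 8 and 0 of 8 in groups 1 to 3. Among paralog groups 9 to 13, 4 of 16 genes were expressed, namely Hoxa10, Hoxb9, Hoxd9 and Hoxd10, against 9 of 15 in groups 4 to 8 and 3 of 8 in groups 1 to 3. These counts depend on the cutoff. Hoxa10 passed by its mean only, with 0.97, 0.86 and 1.30 CPM, and Hoxb9 had 0.594 CPM in YFP-CTRL library C. Hoxa6 and Hoxa3 just missed it, with means of 0.929 and 0.895 CPM. More than 3 counts in every YFP-CTRL library were found for 20 of 39 Hox genes and for 7 of 11 in HoxA.

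A total of 14 Hox genes had no count in any of the 6 libraries: Hoxa11, Hoxa13, Hoxb13, Hoxd11, Hoxd12, Hoxd13 and every HoxC gene except Hoxc6. At this depth a count of 0 allows a level up to the limit of 3 counts given above, so these genes were not detected rather than shown to be absent. Another 5 genes had counts but too few to be tested. Hoxc6 had at most 3 counts in any library. Hoxd1, the most anterior HoxD gene, had no count in Meis1-OE EC and 4, 1 and 2 counts in YFP-CTRL EC. Hoxb1, which patterns the hindbrain, had 3 to 6 counts in Meis1-OE EC and 3 to 7 in YFP-CTRL EC. Hoxa9, a gene well known for its role with Meis1 in leukemia, had 7, 4 and 9 counts in Meis1-OE EC and 3, 4 and 4 in YFP-CTRL EC, all near the limit of detection. Hoxa4 had 9, 8 and 6 counts in Meis1-OE EC and 2, 3 and 3 in YFP-CTRL EC, so its YFP-CTRL values were all at or under that limit and no fold was computed.

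**Figure D1:**
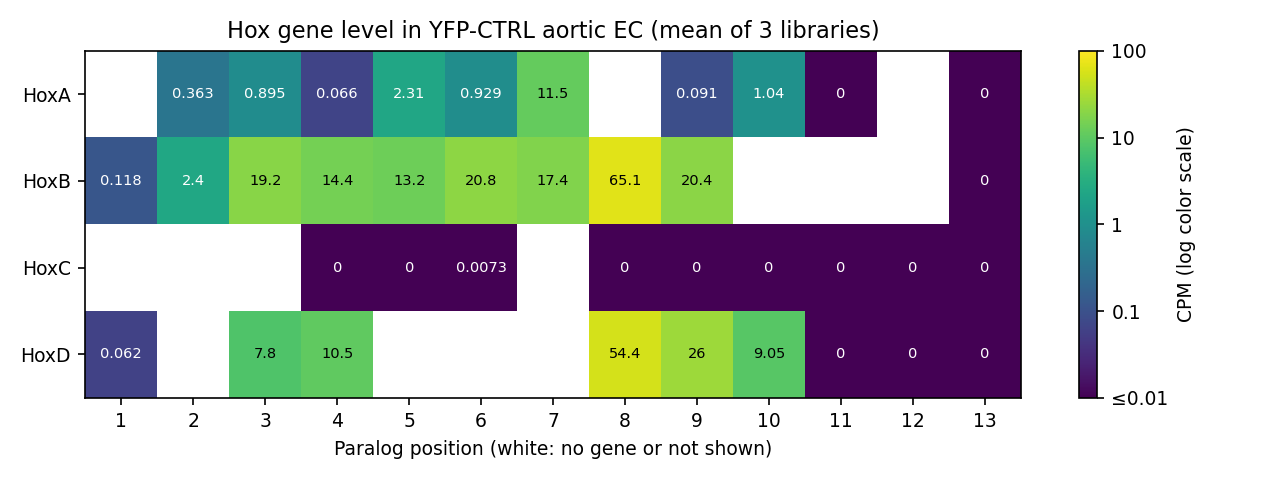
Mean level of Hox genes over the 3 libraries of YFP-CTRL EC (CPM, printed and as colour on a log scale) by cluster (rows) and paralog group (columns). HoxB and HoxD hold most of the counts, HoxC is empty apart from a trace of Hoxc6, and groups 11 to 13 have no count in any cluster.

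Levels of different genes were compared only per kilobase of exon, as CPM per kb. By this measure Hoxb8 had the highest mean in YFP-CTRL EC, 24.6 CPM per kb with a range of 13 to 34.1 over the 3 libraries, followed by Hoxd8 with 19.8 (11.8 to 26.0), Hoxd9 with 11.9 (11.3 to 12.8) and Hoxb6 with 10.01 (8.37 to 12.9). The ranges of each neighbouring pair in this order overlapped down to Hoxd10 at 3.41 CPM per kb, passing through Hoxb9, Hoxb3, Hoxb5, Hoxb7, Hoxd4, Hoxa7 and Hoxb4. Below Hoxd10 there was a gap to Hoxd3 (1.35) and Hoxa5 (1.23), another to Hoxb2 (0.726) and a last one to Hoxa10 (0.272). These gaps are between neighbours in the order of means, and Hoxb9, with a range of 0.231 to 13.9 CPM per kb, overlapped genes on both sides of them. Paralog group 8, represented by Hoxb8 and Hoxd8 because Hoxc8 was at 0 and HoxA has no such gene, gave the highest means of HoxB and HoxD.

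Across the 20 Hox genes with enough counts to test, 2 fell in Meis1-OE EC, none rose and 18 did not pass an adjusted p of 0.05 (edgeR's quasi-likelihood test, with p-values adjusted by Benjamini-Hochberg over 16065 genes). The genes that fell were Hoxd9 and Hoxd10. Over all genes tested, 4.14% were called higher and 2.73% lower. At an unadjusted p of 0.05, 1 Hox gene was higher and 6 were lower, where the shares over all genes were 12.8% and 13.4%. The median log2 fold change of the 20 genes was -0.10, against 0.01 for all genes, with 7 positive and 13 negative values. The values ran by cluster: in HoxD all 5 were negative with a median of -1.04, in HoxA 5 of 7 were positive with a median of 0.45, and in HoxB 6 of 8 were negative with a median of -0.10. HoxD kept 5 of 5 negative values under every scaling, filter, tool and left-out library tried, and HoxA kept more positive than negative values, whereas HoxB stood at 4 positive and 4 negative with library totals as the scaling or without YFP-CTRL library C. Scaling by library totals also moved the median of all genes to 0.15.

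**Figure D2:**
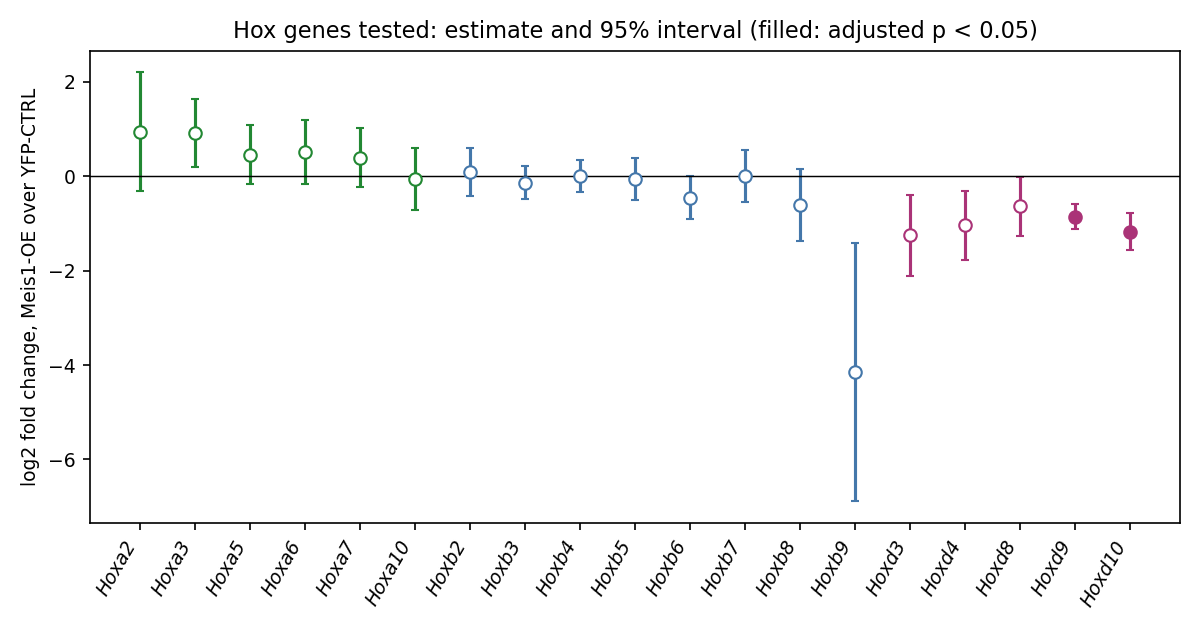
Log2 fold change (Meis1-OE over YFP-CTRL) of tested Hox genes by cluster, with 95% confidence intervals from edgeR. Only Hoxd9 and Hoxd10 pass the adjusted threshold, the 5 HoxD genes all lie below 0, and the interval of Hoxb9 is the widest.

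The HoxD cluster spans chr2:74668225-74765142 (GRCm38.p6, the build called mm10). Its summed level was 59.9, 62.2 and 63.1 CPM in Meis1-OE EC and 93.8, 113 and 116 CPM in YFP-CTRL EC. Every Meis1-OE library was below every YFP-CTRL library, with means of 61.7 ± 1.66 and 108 ± 12.3 CPM (SD, n = 3 each). An exact permutation test of a single such value cannot go below 0.1 with 3 libraries a group, so the tests given are those of the fit across all genes.

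Hoxd9, a posterior gene that helps pattern the limbs and lower spine, lies at chr2:74697763-74700208 and shares no bases with another gene of the table. It had 13.9, 14.4 and 14.8 CPM in Meis1-OE EC and 24.7, 28.0 and 25.4 CPM in YFP-CTRL EC. The groups did not overlap, and both were tight: the highest YFP-CTRL library was 1.13-fold above the lowest, and 91.1% of all tested genes spread more than this. Hoxd9 fell by 0.86 on the log2 scale (SE 0.116, 95% interval -1.13 to -0.59, adjusted p = 0.00969 by edgeR), a 1.81-fold lower level.

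Hoxd10, its neighbour at chr2:74684273-74695106, is a posterior gene known in endothelium as an inhibitor of migration and vessel growth. It had 3.76, 4.14 and 4.10 CPM in Meis1-OE EC and 8.83, 10.3 and 7.99 CPM in YFP-CTRL EC. Again every Meis1-OE library was below every YFP-CTRL library, including library C. Hoxd10 fell by 1.18 on the log2 scale (SE 0.164, 95% interval -1.56 to -0.79, adjusted p = 0.0107 by edgeR), a 2.26-fold lower level. It shares bases with Hoxd11, which was at 0 in all libraries. Both calls were lost without either of 2 Meis1-OE libraries. Without Meis1-OE library B the adjusted p was 0.0847 for Hoxd9 and 0.0779 for Hoxd10, and without Meis1-OE library C it was 0.0689 and 0.0694. Calls were lost across the table in these fits, where 16 and 18 of all genes were lower, against 438 in the main fit. In the other 13 of 15 alternatives both were called, and over all of them the log2 fold change stayed between -0.91 and -0.72 for Hoxd9 and between -1.27 and -1.03 for Hoxd10.

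The promoter windows of these genes, with that of Hoxa3, the tested Hox gene that was higher without overlap, are shown because they let the letters of known TALE and Hox motifs be searched beside the measured differences. They are RefSeq windows of 300 bases on GRCm38.p6, from 250 bases before to 50 after a transcript start, written 5′ to 3′ on the gene's strand. Hoxd9 is at chr2:74697513-74697812 on the plus strand, Hoxa3 at chr6:52213018-52213317 on the minus strand, and Hoxd10 at chr2:74691641-74691940 on the plus strand, where a RefSeq transcript starts inside the span of the gene. Capitals mark a match to TGACAG, the core bound by Meis and Pknox proteins, on either strand.
Hoxd9: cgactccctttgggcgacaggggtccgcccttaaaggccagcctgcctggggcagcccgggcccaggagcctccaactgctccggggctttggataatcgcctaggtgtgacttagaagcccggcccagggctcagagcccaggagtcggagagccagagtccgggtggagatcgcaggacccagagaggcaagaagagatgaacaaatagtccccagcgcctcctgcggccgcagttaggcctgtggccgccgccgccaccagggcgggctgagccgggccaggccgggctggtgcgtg
Hoxd10: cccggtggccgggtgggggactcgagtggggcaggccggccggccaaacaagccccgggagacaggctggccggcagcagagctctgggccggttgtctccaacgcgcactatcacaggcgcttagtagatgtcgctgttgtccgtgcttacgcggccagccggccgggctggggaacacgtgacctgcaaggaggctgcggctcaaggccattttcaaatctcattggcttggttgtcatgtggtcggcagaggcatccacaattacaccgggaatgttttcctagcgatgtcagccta
Hoxa3: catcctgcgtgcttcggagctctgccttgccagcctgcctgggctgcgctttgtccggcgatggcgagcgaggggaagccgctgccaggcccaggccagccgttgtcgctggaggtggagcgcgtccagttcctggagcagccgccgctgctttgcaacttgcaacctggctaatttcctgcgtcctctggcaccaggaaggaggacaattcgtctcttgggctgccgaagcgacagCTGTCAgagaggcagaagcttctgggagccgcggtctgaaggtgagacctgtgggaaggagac
TGACAG was searched on both strands, as was TGATTNAT, a sequence bound by Pbx with Hox. Neither is in the windows of Hoxd9 and Hoxd10, and TGACAG is in that of Hoxa3, where it reads CTGTCA on the strand shown. The table held 24 windows for 22 of the 39 Hox genes, with none for Hoxb9. TGACAG was in 2 of these 24 windows (8.33%, Hoxa2 and Hoxa3) and in 19.2% of all 32851 windows of this length, and TGATTNAT was in 2 of 24 (8.33%, Hoxa2 and Hoxd11) and in 3.22% of all. A match describes the letters of a window and is not a measured binding site.

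The other HoxD genes had lower means in Meis1-OE EC without passing the adjusted threshold. Hoxd3, an anterior gene known to raise integrin expression in activated endothelium, had 3.13, 3.77 and 2.89 CPM in Meis1-OE EC and 12.5, 6.20 and 4.67 CPM in YFP-CTRL EC. Hoxd4, which helps pattern the hindbrain and neck, had 6.48, 4.76 and 4.08 CPM in Meis1-OE EC and 15.1, 9.39 and 7.11 CPM in YFP-CTRL EC. For both genes the groups did not overlap, YFP-CTRL library A was the highest and library C the lowest of its group. Their log2 fold changes were -1.25 (SE 0.37, adjusted p = 0.0873) and -1.04 (SE 0.31, adjusted p = 0.0905). The genes overlap on the genome and their estimated counts were fractional in 6 of 6 libraries, so reads may have been split between them and their values are uncertain. How the counts came to be fractional was not tested. Over 15 alternatives Hoxd3 was called in 2 and Hoxd4 in 3, and once the proliferation score entered the fit as a covariate their log2 fold changes were -0.37 and -0.39.

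Hoxd8, the HoxD gene with the highest mean per kilobase, had 32.6, 35.2 and 37.3 CPM in Meis1-OE EC and 32.5, 59.4 and 71.3 CPM in YFP-CTRL EC. YFP-CTRL library A lay just below the Meis1-OE libraries and the other controls above them, so the groups overlapped, and the log2 fold change was -0.64 (SE 0.27, 95% interval -1.26 to -0.01, adjusted p = 0.184 by edgeR). Without that library it was -0.91 (adjusted p = 0.0138). Within the cluster, Hoxd8 made up 54.4, 56.6 and 59.1% of HoxD counts in Meis1-OE EC and 34.7, 52.4 and 61.2% in YFP-CTRL EC, while Hoxd9 held 23.1 to 23.4% and 21.8 to 26.4%. The share of Hoxd9 in the Meis1-OE libraries was thus within the range of the controls, while its level was below them. Of the 5 HoxD genes tested, 4 had groups that did not overlap. Over all Hox genes this held for 1 higher and 5 lower genes of 20, where 17.2% and 15.9% of all tested genes were separated in those directions.

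**Figure D3:**
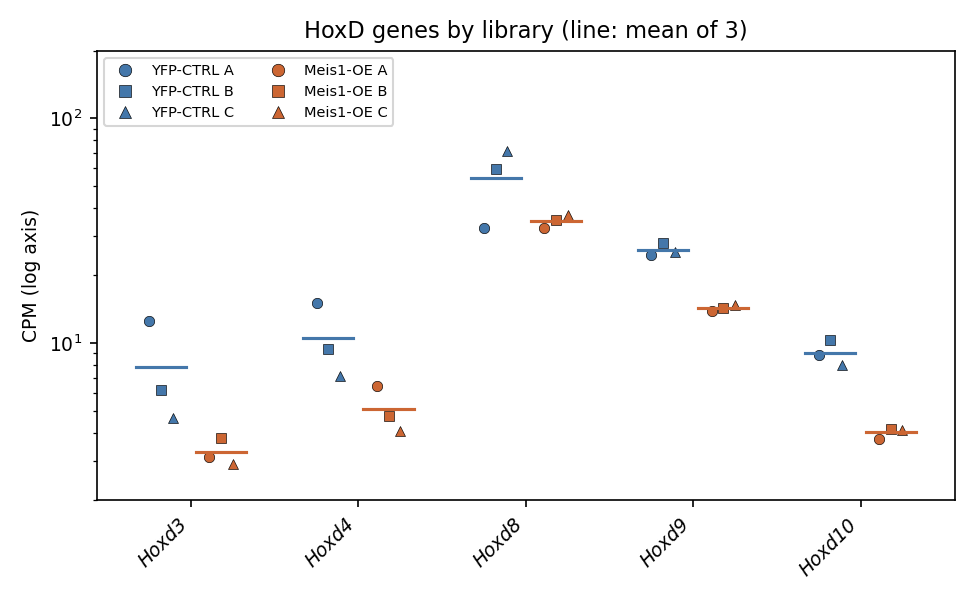
Level of the tested HoxD genes in each library (CPM, log axis), with a line at the mean of 3. Meis1-OE and YFP-CTRL libraries are separate for Hoxd3, Hoxd4, Hoxd9 and Hoxd10, and YFP-CTRL library A sits just below the Meis1-OE libraries for Hoxd8.

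HoxB held the most counts of the clusters and lies at chr11:96194316-96368254. Its summed level was 116, 125 and 131 CPM in Meis1-OE EC and 133, 186 and 199 CPM in YFP-CTRL EC. The groups did not overlap, with means of 124 ± 7.61 and 173 ± 35.1 CPM (SD, n = 3 each). Most of this difference lay in Hoxb8 and Hoxb9, which varied widely among the controls.

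Hoxb9, a posterior gene that helps pattern the thoracic skeleton, had the greatest fitted fold difference and the least even controls of the 20 tested Hox genes. It had 1.03, 1.17 and 1.23 CPM in Meis1-OE EC, and 24.7, 35.8 and 0.594 CPM in YFP-CTRL EC. In counts these were 47, 53 and 57 against 838, 1460 and 27, so all values stood above the limit of detection. YFP-CTRL libraries A and B were 41.5-fold and 60.2-fold above YFP-CTRL library C, which was below every Meis1-OE library. Without TMM scaling, and with 95% Wilson intervals for counting error only, Hoxb9 stood at 24.5 CPM of the library total (22.9 to 26.2) in YFP-CTRL library A, 32.8 (31.1 to 34.5) in library B and 0.563 (0.387 to 0.819) in library C. The controls thus differed far beyond counting error, and only 0.915% of tested genes had a larger ratio between their highest and lowest YFP-CTRL library.

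The log2 fold change of Hoxb9 was -4.15 (SE 1.17, 95% interval -6.89 to -1.41), and it did not pass the threshold (adjusted p = 0.0780 by edgeR). It was called in 3 of 15 alternatives. Without YFP-CTRL library C it was -4.74 (adjusted p = 0.000224), by DESeq2 -4.18 (adjusted p = 0.0115), and without the filter on low counts the adjusted p was 0.0492. Library C, the control low in Hoxb9, was also the control with the highest proliferation and smooth muscle marker levels, the latter mostly from Acta2. From library A to library B both Hoxb9 and the proliferation genes were higher. With the proliferation score as a covariate the log2 fold change was -0.63 (adjusted p = 0.852 by edgeR). That score was 6.43, 6.43 and 6.47 in the Meis1-OE libraries and 4.29, 5.16 and 6.40 in the YFP-CTRL libraries. Only YFP-CTRL library C came near the Meis1-OE libraries, so the adjusted value leans on that library and cannot separate proliferation from group. The part of the proliferation and smooth muscle markers in the Hoxb9 difference was not tested. Hoxb9 made up 18.5 and 19.2% of HoxB counts in YFP-CTRL libraries A and B, 0.298% in library C and 0.890 to 0.942% in Meis1-OE EC. The pattern was rare: 3 of 16065 genes, a count made after the values were seen, had YFP-CTRL libraries A and B both at least 10-fold above library C and every Meis1-OE library, and these were Hoxb9, Cth, an enzyme of cysteine synthesis, and Stc2, a secreted glycoprotein.

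Hoxb8, the gene with the highest mean level per kilobase, had 36.0, 42.4 and 49.9 CPM in Meis1-OE EC and 34.4, 70.8 and 90.1 CPM in YFP-CTRL EC. As for Hoxd8, YFP-CTRL library A was below the Meis1-OE libraries and library C was the highest. The log2 fold change was -0.61 (SE 0.33, adjusted p = 0.283), and it passed the threshold without YFP-CTRL library A (-0.93, adjusted p = 0.0294) and with the proliferation covariate (-1.25, adjusted p = 0.0345). Hoxb6 had 16.8, 15.2 and 13.6 CPM in Meis1-OE EC and 17.4, 18.2 and 26.7 CPM in YFP-CTRL EC. Its groups did not overlap, but the nearest libraries lay close together, and the log2 fold change was -0.45 (SE 0.195, adjusted p = 0.194).

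The remaining HoxB genes, from the anterior and central end of the cluster, had nearly equal means in both groups. Hoxb5, which acts in lung and endothelial development, had 12.97, 12.6 and 12.4 CPM in Meis1-OE EC and 11.3, 11.3 and 17.1 CPM in YFP-CTRL EC. Hoxb4, known for expanding blood stem cells, had means of 14.5 ± 0.83 and 14.4 ± 2.05 CPM (SD, n = 3 each). For Hoxb2, Hoxb3, Hoxb4, Hoxb5 and Hoxb7 the log2 fold change lay between -0.14 and 0.09, with adjusted p values from 0.58 to 0.99 by edgeR, and the groups overlapped. The sign of Hoxb2, Hoxb4, Hoxb5 and Hoxb7 turned under at least 1 alternative, so no direction is given for them.

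**Figure D4:**
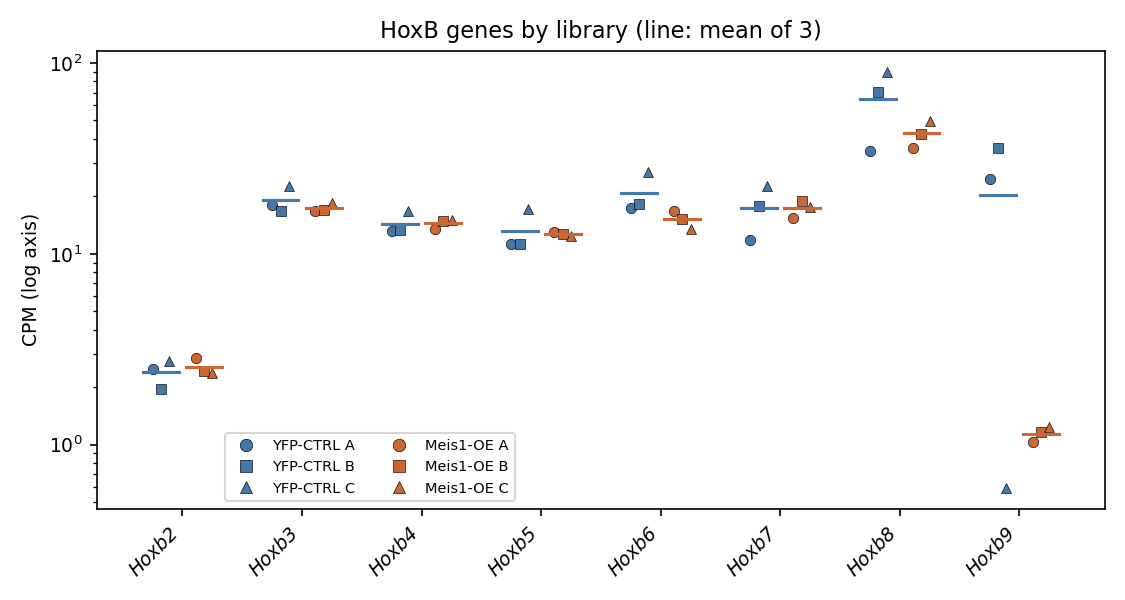
Level of the tested HoxB genes in each library (CPM, log axis), with a line at the mean of 3. The 3 YFP-CTRL libraries of Hoxb9 split into 24.7 and 35.8 CPM against 0.594 CPM, and for Hoxb2, Hoxb3 and Hoxb4 the libraries of both groups lie close together.

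HoxA, on chromosome 6, held the fewest counts of the transcribed clusters. Its summed level was 21.5, 24.2 and 25.3 CPM in Meis1-OE EC and 15.3, 13.3 and 24.3 CPM in YFP-CTRL EC. YFP-CTRL library C lay among the Meis1-OE libraries, and the means were 23.7 ± 1.97 and 17.6 ± 5.88 CPM (SD, n = 3 each). Hoxa7 supplied most of it, with 63.4 to 64.0% of HoxA counts in Meis1-OE EC and 60.2 to 69.1% in YFP-CTRL EC. It had 13.7, 15.3 and 16.2 CPM in Meis1-OE EC and 9.21, 8.38 and 16.8 CPM in YFP-CTRL EC. Library C was again the control apart, and the log2 fold change of Hoxa7 was 0.39 (adjusted p = 0.392 by edgeR), with the opposite sign under the proliferation covariate (-0.0633).

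Hoxa3, an anterior gene linked to endothelial migration and wound repair, was the only tested HoxA gene whose groups did not overlap. It had 1.25, 1.89 and 1.97 CPM in Meis1-OE EC and 0.854, 0.686 and 1.14 CPM in YFP-CTRL EC. The nearest libraries, Meis1-OE library A and YFP-CTRL library C, were close, and the log2 fold change of 0.92 (SE 0.31, 95% interval 0.20 to 1.64) did not pass the threshold (adjusted p = 0.117 by edgeR). Hoxa3 shares bases with Hoxa4, Hoxa5 and Hoxa6, and its estimated counts were fractional in 6 of 6 libraries. Hoxa5, which restrains vessel growth in endothelium, had 2.63, 3.28 and 3.58 CPM against 1.97, 1.86 and 3.08 CPM, and Hoxa6 had 1.20, 1.52 and 1.25 CPM against 0.795, 0.760 and 1.23 CPM. Both overlapped because of YFP-CTRL library C, with log2 fold changes of 0.45 (adjusted p = 0.319) and 0.51 (adjusted p = 0.307). Hoxa2 was at 0.94 (adjusted p = 0.307), and Hoxa10 had no direction that held under all alternatives.

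**Figure D5:**
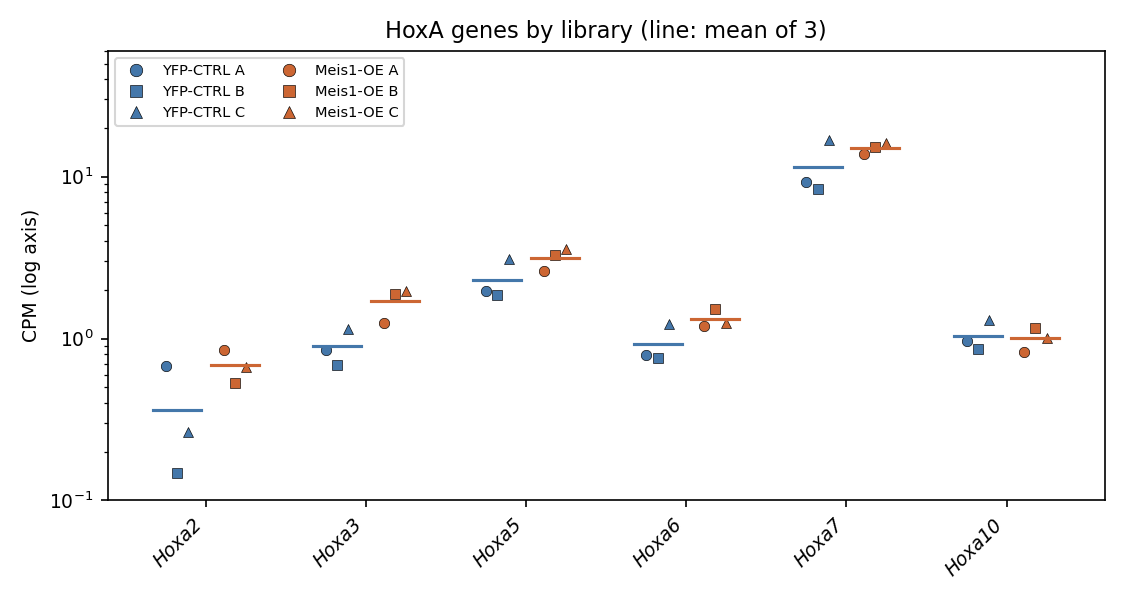
Level of tested HoxA genes in each library (CPM, log axis), with a line at the mean of 3. YFP-CTRL library C is within the range of the Meis1-OE libraries for Hoxa5 and Hoxa6 and just above it for Hoxa7, and among the genes plotted the groups are separate only for Hoxa3.

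Other fits called other Hox genes. Without YFP-CTRL library C, 2 Hox genes were higher, Hoxa3 (1.13, adjusted p = 0.0370) and Hoxa7 (0.77, adjusted p = 0.00486), and 5 were lower, with Hoxb9, Hoxd3 (-1.52, adjusted p = 0.0113) and Hoxd4 (-1.26, adjusted p = 0.0156) beside Hoxd9 and Hoxd10. The shares over all genes grew as well, to 16.5% higher and 15.2% lower. DESeq2 called 0 higher and 5 lower, the same 5 genes, where it called 6.21% and 6.14% of all genes. With the proliferation covariate 5 were lower, Hoxd9, Hoxd10, Hoxd8 (-1.17, adjusted p = 0.0210), Hoxb6 (-0.78, adjusted p = 0.0453) and Hoxb8. Hoxd9 and Hoxd10 were called in each of these fits.

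Set out by paralog group, relatives in different clusters gave unlike values. In group 3, the log2 fold change was 0.92 for Hoxa3, -0.14 for Hoxb3 and -1.25 for Hoxd3. In group 4 it was 0.01 for Hoxb4 and -1.04 for Hoxd4. In group 10, Hoxa10 was at -0.06 (adjusted p = 0.924) beside the fall of Hoxd10, and in group 9 Hoxb9 and Hoxd9 were both lower in mean while Hoxa9 was near the limit of detection and Hoxc9 at 0. In group 8, Hoxb8 and Hoxd8 had nearly the same value, -0.61 and -0.64, and the same order of libraries. The differences between paralogs were not tested.

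Of a chosen list of 16 noncoding genes of the clusters, 10 were at 0 in all libraries, including Hotair and Hottip, and 2 were tested, neither of which passed the threshold. Hoxd3os1, an opposite-strand transcript in the HoxD cluster, had 146, 165 and 169 counts in Meis1-OE EC and 71, 172 and 224 in YFP-CTRL EC (log2 fold change -0.11, adjusted p = 0.868). It overlaps Hoxd3, and counting is not stated to use strand, so reads of the pair may be mixed. Of 16 tested genes that flank the clusters, 1 was higher, Skap2, a signalling adaptor beside HoxA, with 39.7, 48.9 and 50.4 CPM in Meis1-OE EC and 18.1, 23.9 and 26.7 CPM in YFP-CTRL EC (log2 fold change 1.02, SE 0.18, adjusted p = 0.0209), and none was lower, against 4.14% higher and 2.73% lower over all genes. The groups of Skap2 did not overlap, and its call was lost with the proliferation covariate (adjusted p = 0.0632) and without Meis1-OE library B, Meis1-OE library C or YFP-CTRL library B.

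Of 27 tested genes that set up or maintain Hox transcription, 3 fell and none rose, where 2.73% and 4.14% of all tested genes did so. They were Dot1l, a histone H3 lysine methyltransferase (log2 fold change -0.59, adjusted p = 0.0390), Wdr5, a core subunit of the MLL complexes (-0.54, adjusted p = 0.0454), and the retinoic acid receptor Rara (-0.49, adjusted p = 0.0418). Each of these 3 calls was lost in several alternatives, with adjusted p values up to 0.216, 0.226 and 0.228 by edgeR, and with library totals as the scaling none was made. The upstream homeobox genes Cdx1, Cdx2 and Cdx4 were at 0 in all libraries. The median over the 27 genes was -0.15.

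Of the TALE partners, 7 of 9 were tested, 2 rose and none fell, where 4.14% and 2.73% of all tested genes did so. One was Meis1, the transduced gene, raised by design (log2 fold change 11.07, SE 0.26, adjusted p = 6.92e-06 by edgeR). The other was Pknox1, with 73.3, 83.4 and 86.3 CPM in Meis1-OE EC and 23.5, 29.9 and 23.5 CPM in YFP-CTRL EC (1.66, SE 0.14, adjusted p = 0.00232). Pknox1 was called in 15 of 15 alternatives. Pbx2 and Pbx3 were at 0.30 and 0.36 (adjusted p = 0.174 and 0.216) with groups that did not overlap, where 17.2% of all tested genes were separated upward. Neither passed the threshold, nor did Pbx4 at 1.23 (adjusted p = 0.143) or Meis2 at -0.12 (adjusted p = 0.749). Meis3 and Pknox2 had at most 5 counts in any library.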

How the data were processed

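RNA-seq was analysed from 6 libraries, 3 of Meis1-OE EC and 3 of YFP-CTRL EC. The authors deposited 1 table of 54429 gene symbols that holds estimated counts, without any scaling between libraries. The genome build mm10 comes from the submitters' processing notes, and the aligner, the counting tool and the annotation are not given in the sources used here. The study's methods describe the transductions of each group as independent replicates of purchased cells, and they do not name separate donor animals, so p-values measure the spread between these libraries. Replicates differed from each other by more than sampling noise.

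Counts were rounded to whole numbers and filtered with edgeR's filterByExpr, which left 16065 genes. They were scaled by TMM and tested with edgeR 4.0.16 (quasi-likelihood test, R 4.3.3) between the 6 libraries, with Benjamini-Hochberg adjustment over all genes and a threshold of 0.05. The biological coefficient of variation was 0.233. Alternatives were other scalings and filters, unrounded counts, a robust fit, DESeq2 1.42.0, a proliferation covariate, a block on the column letter and leaving out each library. The proliferation score hardly varied among the Meis1-OE libraries, so its slope in the covariate fit came mainly from the YFP-CTRL libraries. The main edgeR fit and DESeq2 were first tested on simulated data, and the other alternatives and statistics were not. Exon lengths for levels per kilobase were the union of exons in the GENCODE vM1 annotation, matched by symbol. Coordinates and promoter sequences are from RefSeq for GRCm38.p6. Wilson intervals and limits of detection cover counting error only. The intervals of log2 fold changes come from the edgeR fit and include the spread between libraries. Hox genes are named, with values in each library for those that passed the threshold, did not overlap or were highest in their cluster. The genes, lists and tests were chosen with earlier results of these data known. Some genes are not reported here.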

Additional observations from a re-analysis of the deposited data

How the results depend on the processing

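Of the 2 Hox genes called lower, DESeq2, the proliferation covariate and an adjusted p of 0.1 gave 5 and an unadjusted p of 0.05 gave 6 (with 1 higher in place of 0), and leaving out 1 library gave 0 to 5 lower and 0 to 2 higher. Over all genes, 665 were higher and 438 lower, against 1048 and 179 with library totals, 1128 and 1115 by DESeq2, 357 and 283 with the covariate, 1138 and 1073 at an adjusted p of 0.1, 2050 and 2155 at an unadjusted p of 0.05, and 115 to 2717 and 16 to 2498 with 1 library left out. The 3 regulators called became 0 with library totals, 1 without the filter on low counts, 1 with the covariate, 5 by DESeq2, 5 at an adjusted p of 0.1, 8 at an unadjusted p of 0.05 and 0 to 13 with 1 library left out. The 2 TALE genes became 5 at an unadjusted p of 0.05 and 2 to 4 with 1 library left out. The 1 noncoding or flanking gene became 0 with the covariate, 2 at an unadjusted p of 0.05 and 0 to 6 with 1 library left out. The 3 endothelial and blood target genes called became 5 by DESeq2, 6 at an adjusted p of 0.1, 8 at an unadjusted p of 0.05 and 0 to 9 with 1 library left out. The cause was not tested. Same-lettered libraries correlated at 0.267, 0.12 and 0.07 in their deviations from the group means, and differently lettered ones at -0.269 to 0.214. These values do not settle whether the letters mark pairs, and the main fit did not use them as pairs. A block on the letter gave 189 genes lower, 0 regulators, Hoxd4 at -1.001 (adjusted p = 0.0372) and Hoxb7 at 0.0401. Genes that were not called turned sign as follows. With library totals Hoxa10 was at 0.0796, Hoxb5 at 0.0803, Hoxb7 at 0.14 and Meis2 at 0.021. With the covariate Hoxa7 was at -0.0633, Hoxb4 at -0.19 and Meis2 at 0.22. Hoxb4 was at -0.0089 with DESeq2's size factors and at -0.0064 by DESeq2, and Hoxb7 at 0.0045 with at least 10 counts in every library. With 1 library left out, the log2 fold change ran from -0.17 to 0.12 for Hoxa10, from -0.0243 to 0.19 for Hoxb2, from -0.0695 to 0.12 for Hoxb4, from -0.18 to 0.16 for Hoxb5, from -0.23 to 0.21 for Hoxb7 and from -0.22 to 0.11 for Meis2. Depth limits the 19 Hox genes that were not tested.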

Other observations

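Genes known to respond to Hox proteins in endothelium and to Hox with Meis in blood were also read. Of 12 tested endothelial genes, 1 fell, Plaur, the urokinase receptor, with 160, 146 and 149 CPM in Meis1-OE EC and 330, 430 and 238 CPM in YFP-CTRL EC (log2 fold change -1.13, adjusted p = 0.0242 by edgeR), and none rose. Over all tested genes 2.73% fell and 4.14% rose. Of 9 tested blood genes, Lmo2, a bridging factor of blood and endothelial transcription complexes, rose, with 20.9, 28.2 and 35.6 CPM in Meis1-OE EC and 6.83, 6.72 and 10.3 CPM in YFP-CTRL EC (1.83, adjusted p = 0.0107), and Cd34, a surface sialomucin of endothelium and blood progenitors, fell, with 384 to 386 CPM and 591 to 637 CPM (-0.68, adjusted p = 0.0108). The groups did not overlap for any of these 3 genes. Each call was lost in some of the alternatives, with adjusted p values up to 0.136 for Plaur, 0.0625 for Lmo2 and 0.0933 for Cd34. The medians over the tested genes were -0.04 and -0.01 for these lists, against 0.01 for all genes.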
